A study of Mus musculus with 33 samples.

Results

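The genes described here are 10 regulators of cardiac and paraxial mesoderm: the transcription factors Gata4, Gata6, Mef2c, Meox1, Foxc1, Foxc2, Hand1 and Isl1, the coactivator Myocd and the receptor Pdgfra. The list names them by their place in mesoderm and uses no measured value in its rule, but earlier results of these data were known when it was drawn up. Of the 10, 9 had a row among the 14717 genes of the expression table, and Hand1 was not analysed here. RNA was measured in P19, a mouse embryonal carcinoma line, in 15 libraries that form 5 groups of 3. D0 is the undifferentiated line at day 0. D3DMSO and D6DMSO are cells at day 3 and day 6 after treatment with 1% DMSO, the route of this line to mesoderm and heart muscle. D3RA and D6RA are cells at the same days after 1 µM all-trans retinoic acid (RA), its route to neurons. Both treatments were given while the cells were held for 2 days as embryoid bodies, after which they were moved to flasks with maintenance medium, so the D3 and D6 groups share the aggregation step and D0 lacks it. All groups come from this 1 cell line, and the labels do not say whether the 3 samples of a group came from separate cultures, and p-values therefore reflect the scatter of these samples alone, which could be technical.

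In the embryo, mesoderm leaves the primitive streak and is divided into fates by small sets of transcription factors. GATA4 and GATA6 bind GATA motifs and open the cardiac and endodermal programs, MEF2C and the SRF coactivator myocardin (Myocd) switch on contractile genes, and ISL1 and HAND1 mark heart progenitors. FOXC1 and FOXC2 pattern paraxial mesoderm and vessels, MEOX1 is a homeodomain factor of the somites, and PDGFRA is the receptor tyrosine kinase by which mesoderm and mesenchyme read PDGF ligands. Several of these genes also work elsewhere: Gata4 and Gata6 in endoderm, Mef2c in endothelium and neurons, Isl1 in motor neurons and Pdgfra in glial precursors.

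RefSeq promoter windows (assembly GRCm38.p6, 250 bases before the start, printed 5′ to 3′ on the gene's strand) were available for 4 members: Mef2c with 3 starts, and Foxc1, Pdgfra and Isl1 with 1 each. The 5 windows below are shown because they belong to the member that was higher with RA at day 3 (Mef2c) and to a pair that was far lower (Foxc1 and Pdgfra). Capitals mark matches, on either strand, to GATAA (the core of a GATA factor site), GTAAACA (forkhead), TCACAC (T-box) or AGGTCA (the core bound by nuclear receptors, the class to which the RA receptors belong). AGGTCA and TCACAC share the letters TCA and could overlap, but no 2 matches overlap in the windows shown. In the coordinates, + or − gives the strand.
Mef2c, chr13:83503784-83504033, +: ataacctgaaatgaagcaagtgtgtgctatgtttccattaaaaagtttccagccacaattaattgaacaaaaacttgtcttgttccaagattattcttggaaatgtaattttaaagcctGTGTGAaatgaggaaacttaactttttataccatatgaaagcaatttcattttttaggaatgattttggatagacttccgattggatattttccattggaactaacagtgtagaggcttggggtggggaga
Mef2c, chr13:83523406-83523655, +: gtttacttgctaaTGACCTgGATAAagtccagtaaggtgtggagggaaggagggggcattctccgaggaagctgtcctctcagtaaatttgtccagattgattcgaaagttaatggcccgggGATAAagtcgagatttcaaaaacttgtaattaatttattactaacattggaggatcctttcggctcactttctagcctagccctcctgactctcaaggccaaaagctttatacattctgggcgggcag
Mef2c, chr13:83573357-83573606, +: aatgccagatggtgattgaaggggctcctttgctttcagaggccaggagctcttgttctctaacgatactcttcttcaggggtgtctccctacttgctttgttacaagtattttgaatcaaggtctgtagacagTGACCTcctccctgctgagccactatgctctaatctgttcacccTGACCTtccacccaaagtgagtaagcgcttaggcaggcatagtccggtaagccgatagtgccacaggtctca
Foxc1, chr13:31806396-31806645, +: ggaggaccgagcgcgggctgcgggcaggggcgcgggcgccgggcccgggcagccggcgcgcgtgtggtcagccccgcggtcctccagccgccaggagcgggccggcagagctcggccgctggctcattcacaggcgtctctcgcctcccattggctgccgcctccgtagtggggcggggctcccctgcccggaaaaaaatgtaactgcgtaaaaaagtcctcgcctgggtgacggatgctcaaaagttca
Pdgfra, chr5:75152001-75152250, +: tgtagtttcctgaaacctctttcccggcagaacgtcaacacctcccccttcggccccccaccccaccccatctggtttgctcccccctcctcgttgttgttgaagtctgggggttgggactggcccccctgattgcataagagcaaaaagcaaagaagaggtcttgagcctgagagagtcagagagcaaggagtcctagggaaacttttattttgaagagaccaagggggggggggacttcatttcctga

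In the order printed, the Mef2c windows hold 1 TCACAC match, then 2 GATAA matches with 1 AGGTCA match, then 2 AGGTCA matches. The Foxc1 and Pdgfra windows hold none of the 4 motifs. The Isl1 window (chr13:116309689-116309938, −) holds 1 GATAA match. Over all 32851 promoter windows of the same length, 22.6% hold GATAA, 3.17% hold GTAAACA, 12.3% hold TCACAC and 14% hold AGGTCA. At least 1 E-box (CANNTG, left in lower case) stands in 66.2% of all windows, in 2 of the 3 Mef2c windows and in those of Pdgfra and Isl1. The Foxc1 and Isl1 windows hold 29 and 33 CpG dinucleotides against a median of 6 over all windows. A match is a description of these letters and not evidence of binding. The printed windows were picked by the RA differences of their genes, and Mef2c has 3 windows where the others have 1 each. Motif counts therefore cannot be compared between these members.

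Total counts were 3.55 to 9.88 M per library in the 9 D0 and D3 libraries and 38.2 to 49.6 M in the 6 D6 libraries. All D6 libraries hold mitochondrial counts (41.6% to 55.8% of the total over 11 genes), whereas the 9 D0 and D3 libraries hold 0. Day 6 and these differences in depth and content cannot be told apart, which touches each comparison of D6 with D0 or D3 and the comparison of effects between days. A second uneven feature is the share of counts on Lars2, Gm15564 and 2 unnamed IDs, which ran from 1.97% to 45.7% of non-mitochondrial counts in the D0 and D3 libraries and was at most 1.70% in D6. The pluripotency gene Pou5f1 averaged 1317 CPM in D0, 555.2 in D3DMSO, 1.79 in D3RA, 47.0 in D6DMSO and 0.115 in D6RA, and the neuronal microtubule gene Map2 reached 1216 CPM in D6RA against 3.86 in D6DMSO. Levels are given in CPM, from whole counts recovered from the deposited values, and differences in log2 fold change ± SE from limma with a Benjamini-Hochberg adjusted p over all 14717 genes. A gene was called where the adjusted p was under 0.05. The members are measured in bulk, so fewer cells of a type and less RNA per cell cannot be told apart.

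Between D0 and D3DMSO, 7 of the 9 measured members rose, 1 (Myocd) fell and 1 (Mef2c) was not called, while 28.2% of all genes were called higher and 27.8% lower. Between D0 and D3RA, 5 members rose (Mef2c, Meox1, Foxc1, Foxc2 and Isl1) and 2 fell (Gata4 and Myocd), beside 35.0% and 33.9% of all genes. With RA against DMSO at day 3, 7 members were lower, 1 (Mef2c) was higher and 1 (Meox1) was not called, where 31.4% of all genes were called lower and 30.7% higher. At day 6 all 9 members were lower with RA, beside 33.1% of all genes lower and 32.6% higher. The median log2 fold change of the members was -1.68 at day 3 and -5.61 at day 6, against -0.01 and -0.02 for all genes. The shares of all genes given for a comparison also apply to the list and marker counts of that comparison.

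**Figure D1:**
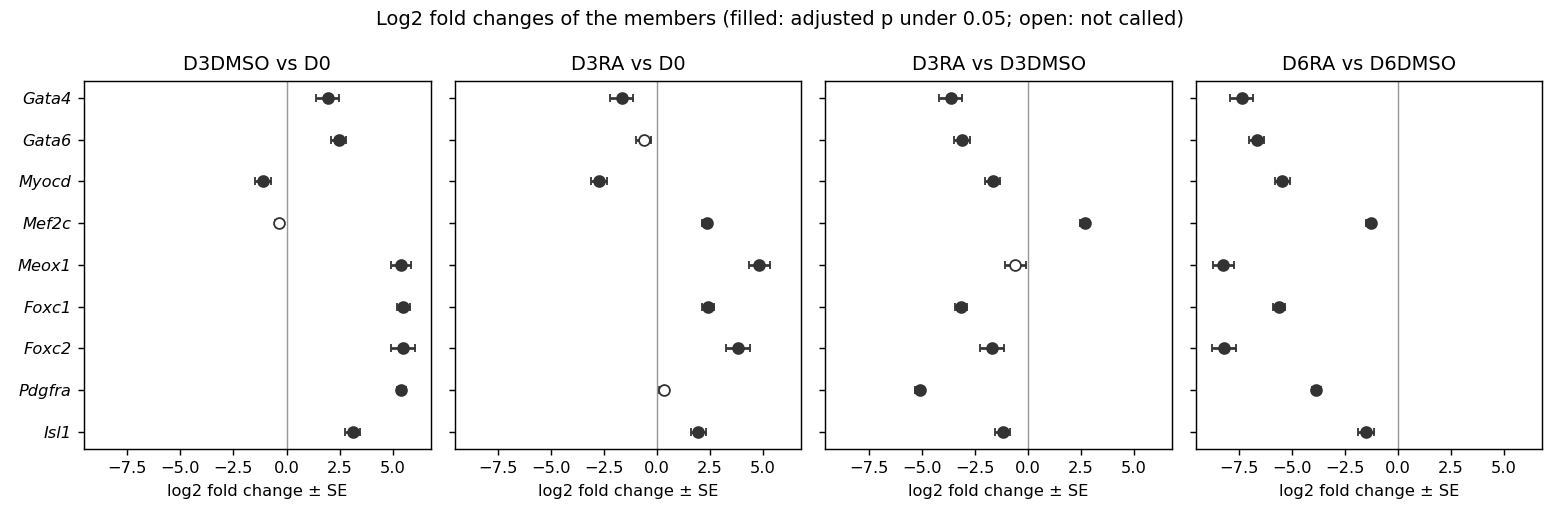
Log2 fold change (x axis, point, with its SE as a bar) of each of the 9 measured members (y axis) in 4 comparisons, with filled points for called genes. In D6RA against D6DMSO all 9 points lie left of 0, and in D3RA against D3DMSO only Mef2c is called to the right.

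The GATA pair was higher in both DMSO groups than in D0, and lower with RA than with DMSO on both days. Gata4 read 2.15, 1.42 and 2.18 CPM in the D0 libraries, 6.77, 8.83 and 6.82 in D3DMSO, 1.18, 0 and 0.914 in D3RA, 16.6, 23.4 and 15.01 in D6DMSO and 0.0993, 0.082 and 0.0939 in D6RA. The DMSO libraries of each day lay above every D0 library and every RA library, and only D3RA and D6RA overlapped, through the D3RA library with 0 counts. The D3DMSO mean of Gata4 was 3.9 times the D0 mean (log2 fold change 1.95 ± 0.54, adjusted p = 0.00597). At day 3 the RA libraries were lower than the DMSO libraries by a log2 fold change of -3.62 ± 0.54 (adjusted p = 2.2e-05). At day 6 the difference was -7.37 ± 0.54 (adjusted p = 2.98e-09), with 8 counts over the 3 D6RA libraries against 1278 in D6DMSO.

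Gata4 also fell below its D0 level with RA, by a log2 fold change of -1.67 ± 0.54 at day 3 (adjusted p = 0.012) and -4.15 ± 0.54 at day 6 (adjusted p = 2.31e-06). The day 3 fall rests on few counts: it was not called with voom weights (adjusted p = 0.0789), with all libraries thinned to 1 depth (adjusted p = 0.116) or with only the compared groups in the fit (adjusted p = 0.0515). Without D3RA replicate 2, the library with 0 Gata4 counts, its size was -0.71, and the RA against DMSO difference at day 3 was -2.66. The rise from D0 to D3DMSO was not called without the 3 libraries richest in Lars2-like counts (adjusted p = 0.0545).

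Gata6 had the same order of group means at higher counts. It read 3.39, 1.89 and 2.36 CPM in D0, 13.0, 12.5 and 16.6 in D3DMSO, 2.10, 0.651 and 2.28 in D3RA, 43.0, 47.3 and 40.0 in D6DMSO and 0.265, 0.451 and 0.564 in D6RA. D0 and D3RA overlapped, and their difference was not called (adjusted p = 0.13), although it was without D3RA replicate 3 (adjusted p = 0.0346). All other neighbours in the order D6RA, D3RA, D0, D3DMSO, D6DMSO were apart. Gata6 was lower with RA, with a log2 fold change of -3.10 ± 0.36 at day 3 (adjusted p = 1.29e-06) and of -6.67 ± 0.36 at day 6 (adjusted p = 5.25e-11), where the D6DMSO mean was 102 times the D6RA mean.

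Both GATA genes are used by endoderm as well as by heart, and 12 of 22 endoderm markers were measured. Their summed level was 745 to 793 CPM in D6DMSO, 463 to 481 in D6RA, 489 to 683 in D3DMSO, 494 to 579 in D3RA and 547 to 602 in D0. Most of the D6DMSO sum was Sparc, Lamb1, Col4a2 and Col4a1, at 251.1, 211.2, 112.8 and 106.2 CPM. Sox7, Apob and Foxa3 averaged 6.11, 4.74 and 1.54 CPM there. Most of the D6RA sum was Lama1 and Cxcr4, at 178.0 and 121.8 CPM. With RA, 3 of the 12 were higher and 8 lower at day 6, beside 32.6% and 33.1% of all genes. At day 3, 6 were higher and 3 lower, beside 30.7% and 31.4%. Sox7 was at 0 in D3DMSO and Foxa3 at 0 in D3RA. Foxa2, Hnf4a, Afp and Ttr were not analysed here, and Sox17, an endodermal and endothelial factor, averaged 3.43 ± 0.35 CPM (SD, n = 3) in D6DMSO and 9.77 ± 1.72 in D3RA. The median log2 fold change of the 12 with RA was 0.37 at day 3 and -1.95 at day 6, and single markers went both ways. Lamb1, a laminin chain of basement membranes, was lower with RA (log2 fold change -3.84 ± 0.17 at day 3 and -5.35 ± 0.17 at day 6, adjusted p = 6.13e-12 and 4.44e-14). Another laminin gene, Lama1, was higher with RA at day 6 (2.42 ± 0.24, adjusted p = 1.05e-07), as was the chemokine receptor gene Cxcr4 (4.22 ± 0.12, adjusted p = 1.11e-14). At day 3 the receptor gene Pth1r was higher with RA (3.35 ± 0.21, adjusted p = 5.48e-10), and Sox7 had 129 counts in D3RA (at least 49.2-fold higher against 3 counts over the group, adjusted p = 3.1e-09). The part of these cells in the GATA levels was not tested.

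Myocd, the cardiac and smooth muscle coactivator of SRF, was a gene of day 6 DMSO. It read 1.33, 2.04 and 1.51 CPM in D0, 0.69, 0.616 and 0.775 in D3DMSO, 0.364, 0 and 0 in D3RA, 10.48, 14.5 and 11.03 in D6DMSO and 0.265, 0.246 and 0.251 in D6RA. D6DMSO stood above every other library, and D0 above every D3 and D6RA library. The D6DMSO mean was 17.3 times the D3DMSO mean (log2 fold change 3.94 ± 0.36, adjusted p = 1.7e-07) and 47.2 times the D6RA mean (RA minus DMSO -5.45 ± 0.36, adjusted p = 8e-10). Unlike the GATA pair it fell from D0 to D3DMSO (log2 fold change -1.10 ± 0.36, adjusted p = 0.0165), on 13 counts against 42. That fall was not called under 5 alternatives, among them the fit without D0 replicate 2 (adjusted p = 0.0689) and the thinned libraries (adjusted p = 0.407). At day 3 Myocd was lower with RA than with DMSO (-1.64 ± 0.36, adjusted p = 0.000883), on only 4 counts against 13. The call held under every alternative, with adjusted p up to 0.0497. The 95% counting interval of the DMSO to RA ratio of summed counts, 0.878 to 12, included 1.

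Mef2c, a MADS-box factor of heart, vessels and neurons, departed from the other members at day 3. It read 2.77, 2.83 and 4.26 CPM in D0, 2.07, 2.67 and 2.79 in D3DMSO, 15.4, 14.0 and 20.6 in D3RA, 17.2, 14.2 and 13.6 in D6DMSO and 6.79, 5.74 and 5.73 in D6RA. D3RA and D6DMSO overlapped at the top and D0 and D3DMSO at the bottom, with D6RA alone between them. At day 3 the RA mean was 6.64 times the DMSO mean (log2 fold change 2.69 ± 0.20, adjusted p = 6.18e-09). At day 6 the order was the opposite, with a log2 fold change of -1.29 ± 0.20 (adjusted p = 2.59e-05). The effect of RA thus differed between days by -3.98 ± 0.29 (adjusted p = 8.98e-09). D6DMSO and D3RA did not differ beyond their spread (-0.15 ± 0.20, adjusted p = 0.518), nor did D3DMSO and D0 (adjusted p = 0.151).

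The summed level of endothelial markers, like Mef2c, was highest in D3RA and D6DMSO, but unlike Mef2c it was higher in D3DMSO than in D6RA. That last order came from Kdr, Flt1 and Etv2, which averaged 46.8, 23.7 and 6.38 CPM in D3DMSO and 8.64, 2.21 and 0.0104 in D6RA. Every other marker of the list had, like Mef2c, a higher mean in D6RA than in D3DMSO, though Tek hardly differed (0.731 and 0.695 CPM). All 12 of 12 were measured, and their summed level was 237 to 304 CPM in D3RA and 221 to 253 in D6DMSO, against 67.2 to 93 in D3DMSO, 29.3 to 39.8 in D6RA and 19.5 to 24.7 in D0. With RA, 9 were higher and 2 lower at day 3, and 0 higher and 9 lower at day 6. All 12 had a called difference between the days, and each was negative, beside 23.1% of all genes called lower in that test. The sialomucin genes Emcn and Cd34 had the highest log2 fold changes with RA at day 3. Emcn had 0 counts in D3DMSO and 307 in D3RA (at least 117-fold higher against 3 counts over the group, adjusted p = 5.64e-11). Cd34 had 3 and 649 (ratio 247, 95% counting interval 84.3 to 1203, adjusted p = 1.07e-07). The exceptions were Etv2, an early haemato-endothelial factor, and Flt1, a VEGF receptor, which were lower with RA at day 3, with log2 fold changes of -3.25 ± 0.39 and -1.09 ± 0.21 (adjusted p = 1.69e-06 and 0.000248).

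Among named genes with a highest group mean of 5 CPM or more, 3 are given that followed the log2 values of Mef2c most closely over the 15 libraries. They were Fli1 (r = 0.967), an ETS factor of blood and endothelium, Arhgap31 (r = 0.966) and Ctla2a (r = 0.965). Fli1 averaged 33.0 CPM in D3RA and 21.5 in D6DMSO and was at 0 in D3DMSO. Of 21 neuronal markers 14 were measured, and they summed to 1087 to 1354 CPM in D3RA and to 50.6 to 55.9 in D6DMSO. The part of endothelial or neuronal cells in the Mef2c level was not tested.

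**Figure D2:**
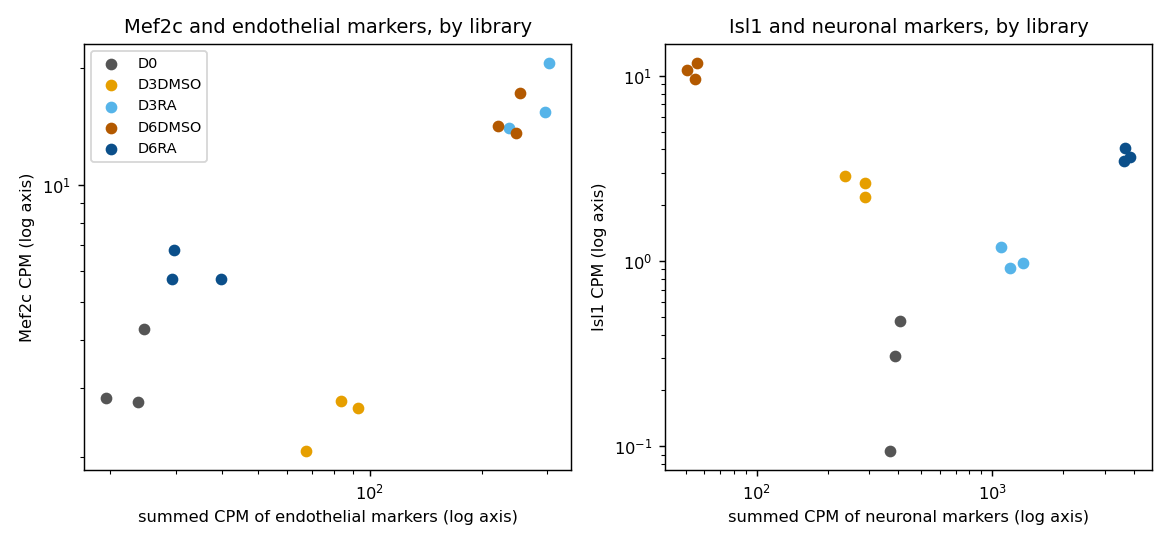
Left, Mef2c level against the summed level of 12 endothelial markers. Right, Isl1 level against the summed level of 14 neuronal markers. Each point is 1 of the 15 libraries, coloured by group, and all axes are CPM on a log scale. For Mef2c the D3RA and D6DMSO libraries lie together at the upper right. For Isl1 the D6DMSO libraries are highest at the lowest neuronal sum.

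Meox1, the somite homeodomain gene, had a very low level in undifferentiated cells, 0.205, 0.157 and 0 CPM in the D0 libraries from 3 counts in all. It reached 6.08, 7.39 and 4.65 CPM in D3DMSO and 4.01, 4.56 and 3.20 in D3RA, then 117.3, 85.0 and 126.4 in D6DMSO but 0.43, 0.205 and 0.438 in D6RA. Both treatments therefore lay above D0 at day 3, and at day 6 only DMSO stayed there without overlap. The ratio to D0 was 52.7 in D3DMSO (95% counting interval 17.6 to 259), 35.6 in D3RA (11.7 to 177) and 971 in D6DMSO (332 to 4711). These intervals hold counting error only.

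At day 3 the Meox1 libraries of RA and DMSO did not overlap but their difference was not called (-0.58 ± 0.49, adjusted p = 0.319). Meox1 was the only member without a called RA effect at that day. At day 6 it was lower with RA (log2 fold change -8.24 ± 0.49, adjusted p = 1.74e-10), where the D6DMSO mean was 306 times the D6RA mean. Within RA it fell from day 3 to day 6 (log2 fold change -3.50 ± 0.49, adjusted p = 8.16e-06), while within DMSO it rose by 4.17 ± 0.49 (adjusted p = 2.43e-06). The effect of RA differed between days by -7.66 ± 0.69 (adjusted p = 1.3e-07). Without D0 replicate 3, which holds 0 counts, the rise from D0 to D3DMSO was 4.61 instead of 5.41.

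**Figure D3:**
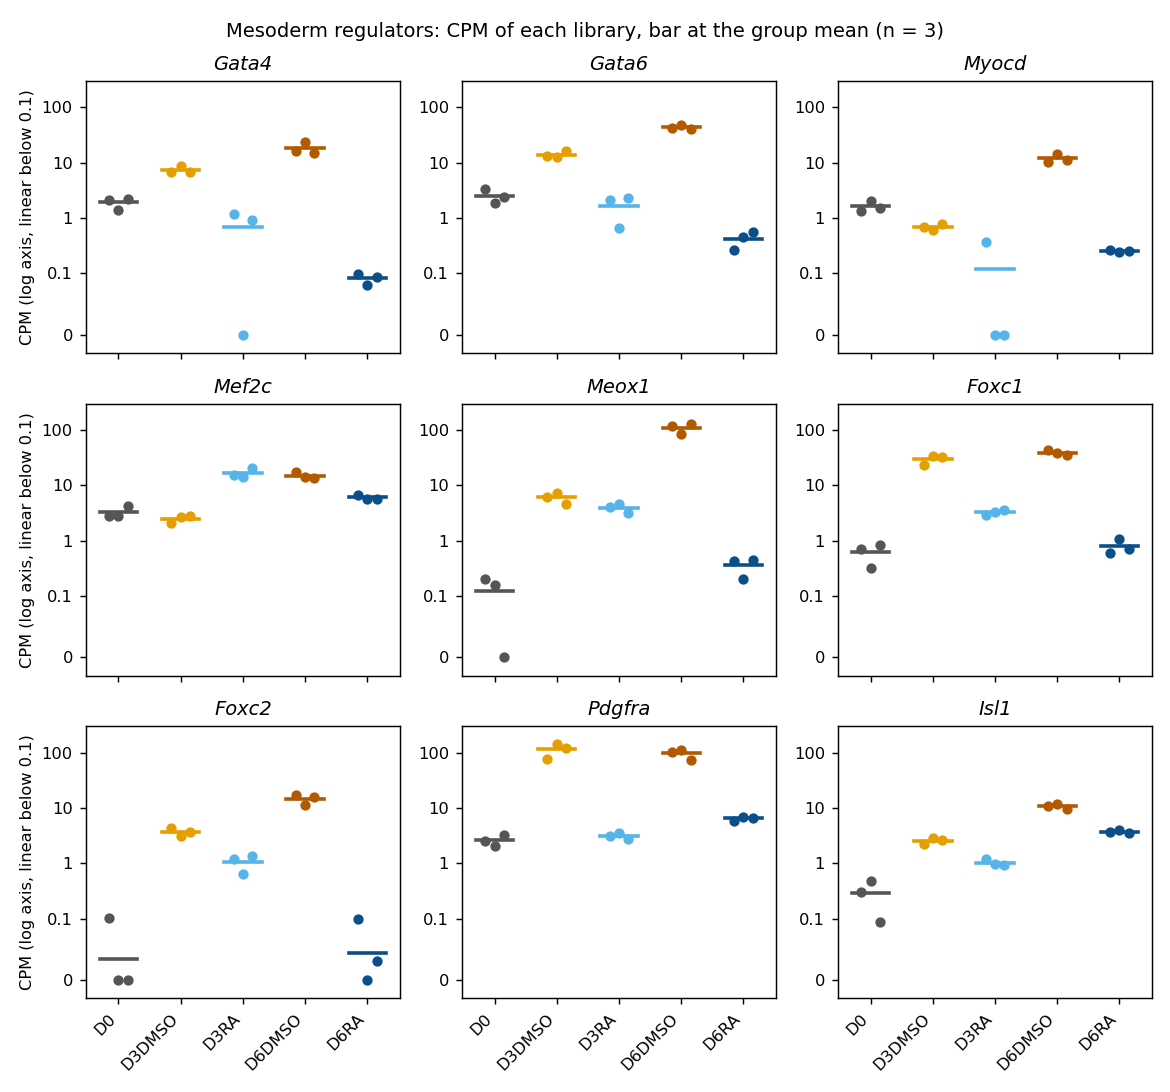
Level in CPM (y axis, log scale, linear below 0.1) of the 9 measured members in each of 15 libraries (points) by group (x axis), with the mean of 3 libraries as a bar. D6DMSO is the highest group for 7 members, D3DMSO for Pdgfra and D3RA for Mef2c.

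The forkhead pair Foxc1 and Foxc2 was above D0 by day 3 of the DMSO route, and only Foxc2 was called higher again at day 6. Foxc1 read 0.718, 0.315 and 0.851 CPM in D0, 23.1, 33.7 and 33.2 in D3DMSO, 2.91, 3.26 and 3.65 in D3RA, 43.1, 38.1 and 34.8 in D6DMSO and 0.596, 1.07 and 0.72 in D6RA. Every DMSO library was above every RA and D0 library, and D0 and D6RA overlapped. From D0 to D3DMSO the mean rose 47.7 times (5.51 ± 0.29, adjusted p = 1.42e-10), whereas D3DMSO and D6DMSO were not called apart (0.38 ± 0.29, adjusted p = 0.272). RA was lower than DMSO, with log2 fold changes of -3.12 ± 0.29 at day 3 (adjusted p = 7.58e-08) and -5.61 ± 0.29 at day 6 (adjusted p = 2.65e-11). D3RA still lay above D0 (2.39 ± 0.29, adjusted p = 1.32e-06), but D6RA did not differ from it beyond the spread (0.28 ± 0.29, adjusted p = 0.372).

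Foxc2 had 1 count over the 3 D0 libraries and 4 over the 3 D6RA libraries. It read 4.28, 3.08 and 3.72 CPM in D3DMSO, 1.18, 0.651 and 1.37 in D3RA and 17.2, 11.3 and 15.6 in D6DMSO. The groups were apart except D0 and D6RA (adjusted p = 0.21). Unlike Foxc1, Foxc2 rose further from D3DMSO to D6DMSO (1.95 ± 0.57, adjusted p = 0.00765). The ratio to D0 was 101 in D3DMSO (95% counting interval 17.5 to 4029) and 29.6 in D3RA (4.67 to 1232). RA was lower than DMSO, with log2 fold changes of -1.68 ± 0.57 at day 3 (adjusted p = 0.0165), a call lost without D3RA replicate 2 (adjusted p = 0.0632), and -8.23 ± 0.57 at day 6 (adjusted p = 1.21e-09). The day 6 difference was -8.87 without D6RA replicate 1 and -7.62 without D6RA replicate 2. It was -7.32 with quantile normalization, -6.37 with the added count in proportion to library size and -6.02 with thinned libraries.

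Foxc1 and Foxc2 are also used by neural crest and vessels. Of 11 neural crest markers 9 were measured, and their summed level was 563 to 594 CPM in D6RA, 206 to 218 in D3RA, 128 to 137 in D6DMSO, 77.6 to 84.3 in D3DMSO and 84.9 to 102 in D0. With RA, 5 of the 9 were higher and 3 lower at day 3, beside 30.7% and 31.4% of all genes. At day 6, 5 were higher and 2 lower, beside 32.6% and 33.1%. Tfap2b, a crest and neuronal AP-2 factor, was higher with RA at day 3, on 98 counts against 1 (ratio 112, 95% counting interval 19.6 to 4471, adjusted p = 3.06e-08), and at day 6 (8.16 ± 0.47, adjusted p = 1.39e-10). Erbb3, a neuregulin receptor, and Ets1, an ETS factor, were lower with RA at day 6 (-3.93 ± 0.45 and -3.55 ± 0.18, adjusted p = 6.3e-07 and 1.63e-11). The D6RA sum was mostly Pax3, Tfap2b and Sox9, which averaged 218.4, 142.9 and 103.0 CPM there. The part of neural crest cells in the Foxc levels was not tested.

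Pdgfra showed the largest difference between treatments among the members at day 3. It read 2.56, 2.04 and 3.22 CPM in D0, 77.1, 143.7 and 122.8 in D3DMSO, 3.10, 3.58 and 2.74 in D3RA, 103.0, 111.8 and 74.5 in D6DMSO and 5.89, 6.93 and 6.67 in D6RA. Both DMSO groups overlapped each other and stood far above the other groups, and D0 and D3RA overlapped. The D3DMSO mean was 43.9 times the D0 mean (5.40 ± 0.21, adjusted p = 5.92e-12) and 36.5 times the D3RA mean (RA minus DMSO -5.08 ± 0.21, adjusted p = 4.74e-12). D3RA and D0 were not called apart (adjusted p = 0.198), nor were D6DMSO and D3DMSO (adjusted p = 0.389), although D6DMSO was called lower without D3DMSO replicate 1 (adjusted p = 0.0485).

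At day 6 the difference between treatments was -3.87 ± 0.21 (adjusted p = 6.76e-11). Pdgfra was the only member whose RA effect was called smaller at day 6 than at day 3, by 1.21 ± 0.30 (adjusted p = 0.00332), and it rose within RA by 0.99 ± 0.21 (adjusted p = 0.000582). Both of these calls were lost with voom weights (adjusted p = 0.0859 and 0.107).

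All 6 other genes of the PDGF pathway were measured. The second receptor gene Pdgfrb averaged 1.77 ± 0.60 CPM (SD, n = 3) in D0, 7.70 ± 2.56 in D3DMSO, 3.36 ± 1.45 in D3RA, 20.6 ± 1.99 in D6DMSO and 3.08 ± 0.63 in D6RA. Pdgfrl, a receptor-like gene without a kinase, rose with Pdgfra in D3DMSO (3.65 ± 0.61, adjusted p = 8.69e-05) and was lower with RA at day 3, on 3 counts against 134, and at day 6 (-3.31 ± 0.61, adjusted p = 6.04e-06 and 0.000148). The ligands moved apart: Pdgfc was higher with RA by 4.11 ± 0.26 at day 3 and 1.87 ± 0.26 at day 6 (adjusted p = 5.97e-10 and 6.24e-06). Pdgfb was higher with RA at day 3 (2.42 ± 0.27, adjusted p = 9.43e-07) and lower at day 6 (-4.21 ± 0.27, adjusted p = 5.98e-10). In all, 2 of the 6 were higher and 2 lower with RA at day 3 (median -0.68), beside 30.7% and 31.4% of all genes. At day 6, 1 was higher and 5 were lower (median -2.67), beside 32.6% and 33.1%. Of 9 markers of glial precursors and glia, which also use Pdgfra, 6 were measured and Olig1, Olig2 and Sox10 were not analysed here. Their sum was 470 to 478 CPM in D6RA, 179 to 209 in D3RA, 68.1 to 76.7 in D3DMSO, 49.4 to 54.7 in D0 and 31.5 to 33.3 in D6DMSO, with Cspg4 at 0 in D3RA. Most of both RA sums was Fabp7, a gene of radial glia, at 170.3 ± 16.1 CPM (SD, n = 3) in D3RA and 421.8 ± 6.1 in D6RA. With RA, 1 of the 6 markers was higher and 5 were lower at day 3 (median -1.33). At day 6, 2 were higher and 2 lower (median -0.29), near the shares of all genes, 32.6% and 33.1%. The part of glial cells in the Pdgfra level was not tested.

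Isl1, a LIM-homeodomain gene of heart progenitors and motor neurons, rose on both routes. It read 0.308, 0.472 and 0.0946 CPM in D0, 2.21, 2.87 and 2.63 in D3DMSO, 1.18, 0.977 and 0.914 in D3RA, 10.7, 11.7 and 9.63 in D6DMSO and 3.64, 4.06 and 3.48 in D6RA. No 2 groups overlapped, and the neighbours D3DMSO and D6RA were the only ones whose difference was not called (0.50 ± 0.36, adjusted p = 0.219). From D0 it rose by 3.12 ± 0.36 in D3DMSO (adjusted p = 1.83e-06) and by 1.95 ± 0.36 in D3RA (adjusted p = 0.000152). RA was lower than DMSO, with log2 fold changes of -1.17 ± 0.36 at day 3 (adjusted p = 0.00994) and -1.51 ± 0.36 at day 6 (adjusted p = 0.00148). The effect of RA was not called different between days (-0.34 ± 0.51, adjusted p = 0.618).

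The day 3 difference of Isl1 rests on 18 and 47 counts and was not called with thinned libraries (adjusted p = 0.346) or when D6 libraries were kept out of the fit (adjusted p = 0.0625). Within RA, Isl1 rose by 1.67 ± 0.36 from day 3 to day 6 (adjusted p = 0.000616), which was not called with thinned libraries (adjusted p = 0.181). Neuronal markers summed to 3614 to 3860 CPM in D6RA and 50.6 to 55.9 in D6DMSO, and 13 of the 14 measured were higher with RA at day 6. The motor neuron markers Mnx1, Isl2, Chat and Slc18a3 were not analysed here. The part of neurons in the D6RA level of Isl1 was not tested.

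From D3DMSO to D6DMSO, 6 of 9 members rose and 0 fell, beside 28.3% of all genes called higher and 28.1% lower, and Gata4, Foxc1 and Pdgfra were not called. From D3RA to D6RA, 2 rose (Pdgfra and Isl1) and 6 fell, beside 37.2% higher and 32.0% lower, and Myocd was not called. The fall of Gata4 within RA was not called with thinned libraries (adjusted p = 0.0878). The effect of RA differed between days in 8 of 9 members, more negative at day 6 in 7 and less negative in Pdgfra, beside 23.1% of all genes called lower and 25.4% higher in the same test. All of these comparisons cross the change in depth and content between D3 and D6 libraries.

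Set against D0, all 9 members were higher in D6DMSO, where 71.9% of all genes were called in either direction. The shares in this paragraph count both directions together. The median log2 fold change from D0 to D6DMSO was 5.13 for the members and 0.04 for all genes. D6RA differed from D0 in 7 members, beside 79.9% of all genes: Mef2c, Meox1, Pdgfra and Isl1 were higher, and Gata4, Gata6 and Myocd were lower. The Meox1 difference (adjusted p = 0.0193) rests on 32 counts in D6RA and 3 in D0, and the libraries overlapped. Its ratio of summed counts was 3.29, with a 95% counting interval of 1.03 to 16.8. D6RA differed from D3DMSO in 8 members, beside 75.5% of all genes, with Mef2c higher and Isl1 not called. D6DMSO differed from D3RA in 8 members, all higher, beside 71.0% of all genes in either direction. The median was 4.73 for the members and 0.05 for all genes. Foxc1 and Foxc2 were not called apart between D6RA and D0.

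Across the 15 libraries, the log2 values of Gata4 and Gata6 had a Pearson r of 0.972, Meox1 and Foxc2 0.946, Foxc1 and Foxc2 0.932, and Foxc1 and Pdgfra 0.911. Mef2c stood aside, with r between -0.069 (Pdgfra) and 0.512 (Meox1). These values are descriptions over libraries that share groups and depth. With the same limits on the genes searched as for Mef2c, those most like Gata4 were Krt19 (r = 0.987), a keratin, Actn2 (r = 0.984), the sarcomeric actinin, and Pask (r = 0.977). Closest to Gata6 were Gata4 itself, Trpm4 and Map3k3 (r = 0.967 for both). Myocd was followed most closely by Lgi2 (r = 0.983), Speg (r = 0.967), a muscle kinase, and Pvr (r = 0.966). For Foxc1 these were Greb1l (r = 0.981), Asah2 (r = 0.98) and the desmosomal gene Dsp (r = 0.973), and for Foxc2 Dusp5 (r = 0.981), Zfp948 (r = 0.975) and Kank1 (r = 0.963). Pdgfra was most like Sfmbt2 (r = 0.983), Tuft1 (r = 0.982) and Ddhd2 (r = 0.977), Meox1 like Lhfpl2 (r = 0.971), Krcc1 (r = 0.962) and Rhbdf1 (r = 0.957), and Isl1 like Ankrd24 (r = 0.97), Creb3 and Dnajc1 (r = 0.964 for both).

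**Figure D4:**
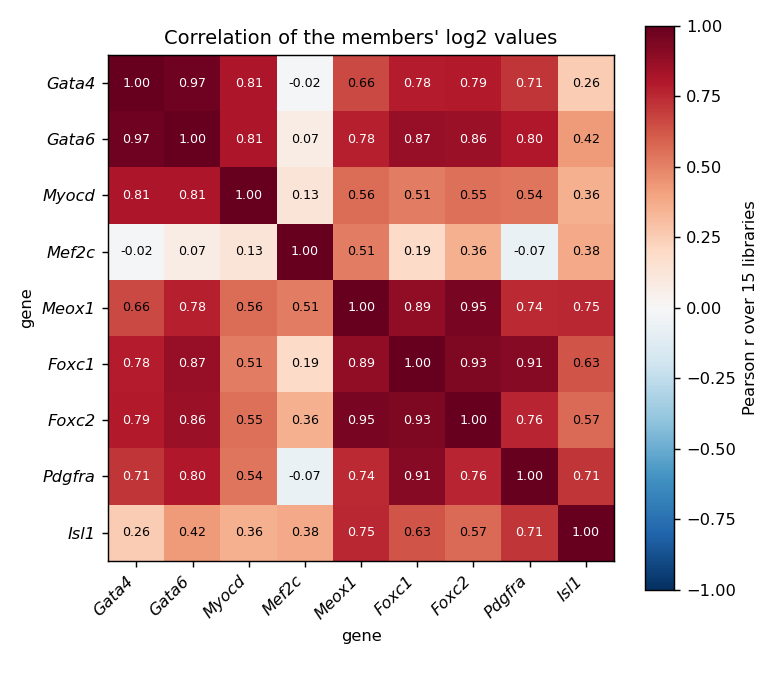
Pearson r between the log2 values of each pair of the 9 measured members over the 15 libraries, printed in each cell and coloured from -1 (blue) to 1 (red). The row of Mef2c is pale throughout, while Gata4 with Gata6 (0.972) and Meox1 with Foxc2 (0.946) are dark red.

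Contractile genes of heart and smooth muscle, which GATA factors, MEF2C and myocardin switch on, were high in D6DMSO. Of 24 listed, 15 were measured. From D3DMSO to D6DMSO 13 of them rose and 0 fell (median 2.29, against 0.01 for all genes), and with RA at day 6, 13 were lower and 0 higher (median -5.52). Actc1, cardiac alpha-actin, averaged 62.6 ± 6.3 CPM (SD, n = 3) in D6DMSO and had 3 counts over the D6RA libraries, a ratio of 1808 (95% counting interval 618 to 8770, adjusted p = 5.29e-16). Tnni1, a troponin I of the fetal heart, had 1283 counts in D6DMSO and 1 in D6RA (ratio 1599, 286 to 63191, adjusted p = 8.25e-11). Ryr2, the cardiac calcium release channel, rose from D3DMSO to D6DMSO by 4.48 ± 0.26 (adjusted p = 7.4e-10). Tnnt2, cardiac troponin T, went from 3 to 346 counts (ratio 30.8, 10.5 to 150, adjusted p = 8.04e-05).

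From D0 to D3DMSO, 3 of these contractile genes rose and 5 fell (median -0.23): Myh11, a smooth muscle myosin, rose by 3.59 ± 0.48 (adjusted p = 7.46e-06), and Tagln, a smooth muscle actin-binding gene, had a log2 fold change of -2.15 ± 0.19 (adjusted p = 6.59e-08). At day 3, RA was lower than DMSO in 10 and higher in 1, which was Tagln (1.12 ± 0.19, adjusted p = 6.4e-05). The lowest of the 10 were Myl4, the atrial light chain (1 count in D3RA and 83 in D3DMSO, adjusted p = 2.88e-09), and Des, desmin (-4.42 ± 0.48, adjusted p = 6.02e-07).

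Of 28 other cardiac regulators 19 were measured. In D3DMSO 10 were above D0 and 4 below it (median 0.93), with Fgf10, a growth factor of heart progenitors, up by 4.12 ± 0.35 and Tbx3, a T-box factor, by 3.92 ± 0.33 (adjusted p = 5.29e-08 and 5.17e-08). From D3DMSO to D6DMSO 16 rose and 1 fell (median 1.42). Smyd1, a methyltransferase of heart and skeletal muscle, rose furthest, from 0.241 ± 0.215 to 41.5 ± 9.94 CPM (SD, n = 3, log2 fold change 7.25 ± 0.68, adjusted p = 2.17e-07). With RA 7 were higher and 9 lower at day 3 (median -0.64), beside 30.7% and 31.4% of all genes. At day 6, 3 were higher and 13 lower (median -2.03), beside 32.6% and 33.1%. The Iroquois genes Irx5 and Irx3, which neural tissue also uses, were the highest with RA at day 3, by 4.69 ± 0.28 and 4.27 ± 0.20 (adjusted p = 2.9e-10 and 2.24e-11).

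Of 25 other paraxial and presomitic regulators 13 were measured. In D3DMSO 7 rose and 0 fell (median 1.40), led by Aldh1a2, the enzyme that makes RA in paraxial mesoderm, from 0.315 ± 0.138 to 214.0 ± 28.7 CPM (SD, n = 3, log2 fold change 9.21 ± 0.26, adjusted p = 2.6e-13). Tbx6, a T-box factor of presomitic mesoderm, rose by 6.82 ± 0.32 (adjusted p = 4.84e-11). From D3DMSO to D6DMSO 4 rose and 7 fell (median -2.11). Tbx6 fell again, with a log2 fold change of -4.46 ± 0.32 (adjusted p = 9.54e-09), while Twist1, a bHLH factor of mesenchyme, rose by 5.03 ± 0.32 (adjusted p = 1.85e-09). With RA 5 were higher and 7 lower at day 3 (median -1.34), beside 30.7% and 31.4% of all genes. At day 6, 5 were higher and 6 lower (median -1.03), beside 32.6% and 33.1%. Pax3, shared with the neural tube and crest, was the highest with RA at day 3 (8.83 ± 0.35, adjusted p = 2.2e-12).

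Among partners and relatives of the GATA, MEF2, HAND and myocardin proteins, 24 of 32 were measured. Zfpm1, the GATA cofactor FOG1, rose in D3DMSO by 2.27 ± 0.21 (adjusted p = 1.85e-07) and was lower with RA (log2 fold change -2.09 ± 0.21 at day 3 and -2.19 ± 0.21 at day 6, adjusted p = 2.98e-07 and 1.12e-07). Its level was 6.94 ± 0.63 CPM (SD, n = 3) in D6RA and 3.90 ± 0.66 in D0. Gata2, of blood and endothelium, was higher with RA at day 3 (5.59 ± 0.46, adjusted p = 2.07e-08), but averaged 7.94 ± 0.43 CPM (SD, n = 3) in D6DMSO and 2.27 ± 0.09 in D6RA. Gata3 was lower with RA at day 6 (-6.88 ± 0.59, adjusted p = 2.19e-08). Of the 24, 11 were higher and 8 lower with RA at day 3 (median 0.12), beside 30.7% and 31.4% of all genes. At day 6, 4 were higher and 11 lower (median -0.15), beside 32.6% and 33.1%. From D3DMSO to D6DMSO 20 rose and 1 fell, beside 28.3% and 28.1%.

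The remaining marker lists were pluripotent cells, trophoblast and skeletal muscle. Pluripotency markers (10 of 12 measured) had summed levels of 2124 to 2470 CPM in the D0 libraries. With DMSO the sum was 664 to 1252 CPM at day 3 and 135 to 154 at day 6, and with RA it was 150 to 171 and 180 to 201. Most of the RA sums was Sox2, which neural progenitors also use, at 146.7 CPM in D3RA and 187.4 in D6RA, and it was higher with RA by 1.13 ± 0.16 at day 3 and 1.96 ± 0.16 at day 6 (adjusted p = 1.45e-05 and 1.49e-08). Of the 10, 7 were lower and 2 higher with RA at day 3 (median -5.61), and 8 were lower and 2 higher at day 6 (median -5.46). Trophoblast markers (6 of 12 measured) summed to 297 to 347 CPM in D6DMSO and 4.54 to 6.06 in D6RA. All 6 were lower with RA at day 6, among them the keratins Krt8 and Krt18. Most of the D6DMSO sum was Krt18 and Krt8, at 213.6 and 55.99 CPM. From D3DMSO to D6DMSO, 3 of the 6 rose and 1 fell. The 1 that fell was Eomes, from 94.19 to 8.20 CPM (log2 fold change -3.54 ± 0.47, adjusted p = 8.68e-06). Only 3 of 9 skeletal muscle markers were measured, and Myod1, Myf5 and Myog were not analysed here. The part of these cells in the members' levels was not tested.

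**Figure D5:**
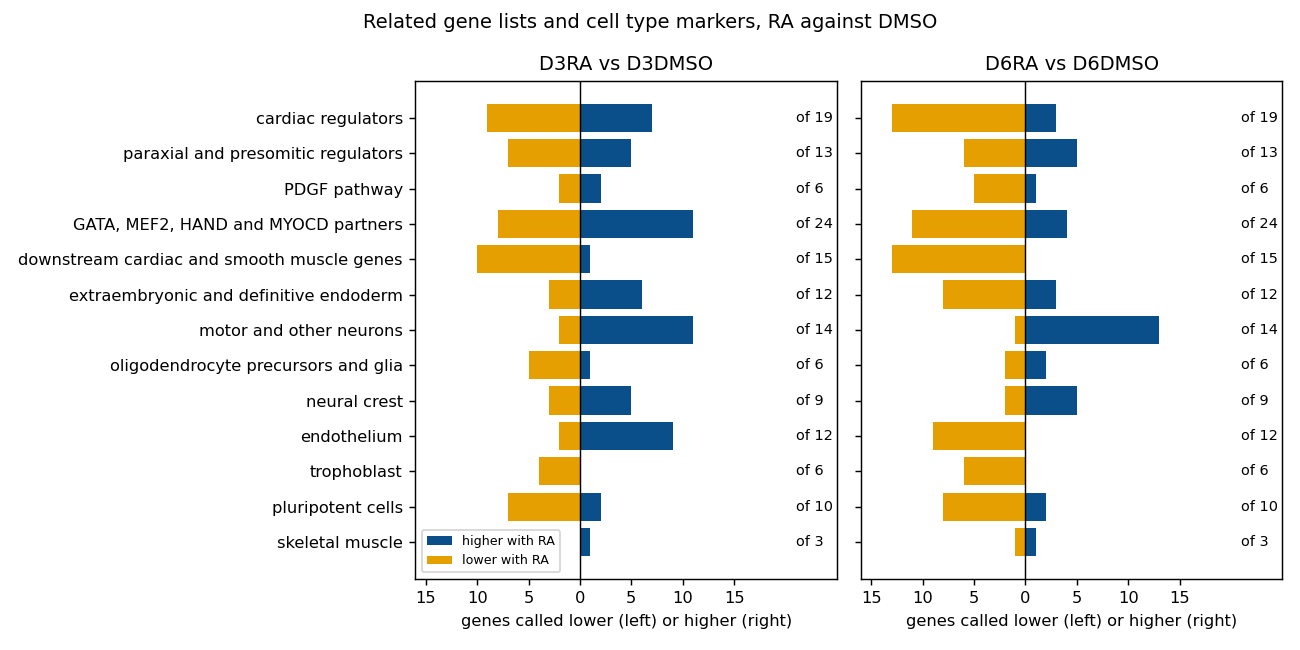
Number of genes called higher (right, blue) or lower (left, orange) with RA than with DMSO at day 3 and day 6, for each list of related genes and cell type markers (rows), with the number measured at the right. At day 6, 13 of 15 contractile genes are lower with RA and 13 of 14 neuronal markers are higher. Endothelial markers turn from 9 higher at day 3 to 9 lower at day 6.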

How the data were processed

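RNA was measured in 15 libraries of 5 groups, grouped by sample titles. The deposited table holds log2 values for 14717 genes, 14228 of them matched to a symbol. Per the submitters' processing notes, the mm9 genome was used with STAR 2.6.0c and Trimmomatic 0.32 among the tools, as well as featureCounts, limma and edgeR, with roles not given in the sources used here. How the authors filtered the table, and whether counting used strand, is not given in the sources used here. Undoing the log2 and taking off 0.5 gave whole counts (100% of values within 0.05). CPM were computed from them with library sizes on the deposited scale, not with total counts. Errors of CPM are SD over 3 libraries.

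Genes were compared with limma 3.58.1 (R 4.3.3, trend in the variance) on all 14717 genes and 15 libraries, with no filter, 10 residual degrees of freedom and Benjamini-Hochberg adjustment. Fold ratios compare mean CPM. Where a group holds 1 to 3 counts, ratios of summed counts carry 95% counting intervals.

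The members and lists were chosen with earlier results of these data known. Besides the members, genes were named by rule: per list and comparison the 2 highest and 2 lowest called genes at 1 CPM or more, and the 3 genes most correlated with each member. The correlated genes were sought among those with a symbol and a highest group mean of 5 CPM or more. Predicted genes, numbered clones, mitochondrial genes, small RNAs and some genes not reported here were left out of that search. Sox17, Fli1's levels, Pou5f1 in all groups, Pdgfrb's levels, the levels of Gata2, Pax3, Tfap2b, Sox9, Sox2 and Zfpm1, and markers not analysed were added after values were seen.

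Alternatives were quantile normalization, another added count, a 5 CPM filter, no trend, voom weights, a replicate block, compared groups only, thinning, and omitting each library in turn. A fit of D0 and D3 only, and leaving out 3 libraries rich in Lars2-like counts, were added after seeing the data.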

Additional observations from a re-analysis of the deposited data

Results flagged for a closer look

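In 8 members the effect of RA differed between day 3 and day 6 by the test of the difference itself (the log2 difference of RA from DMSO at day 6 less that at day 3, limma, called at an adjusted p under 0.05). The difference was -3.75 for Gata4, -3.57 for Gata6, -3.81 for Myocd, -3.98 for Mef2c, -7.66 for Meox1, -2.49 for Foxc1 and -6.56 for Foxc2, each with a more negative effect at day 6. For Gata4 it was -4.71 without D3RA replicate 2, but -2.59 with the added count in proportion to library size and -2.74 with thinned libraries. For Myocd it was -2.97 with the added count in proportion to library size. For Foxc2 it was -7.19 without D6RA replicate 1, -5.94 without D6RA replicate 2 and -4.38 with thinned libraries. It was 1.21 for Pdgfra, whose effect was smaller at day 6. Mef2c alone among them changed sign, from higher with RA at day 3 to lower at day 6, in all 3 libraries against all 3 on both days. The same test called 7139 of 14717 genes, and depth and mitochondrial content also differ between the days.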

How the results depend on the processing

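The 63 log2 fold changes of the 9 members in the 7 main comparisons were recomputed under the alternatives, which gave 1017 values. Of these values, 991 kept direction and side of the threshold, 16 lost the call, 8 gained one and 2 turned, and 47 of the 63 results kept their call throughout. The causes were not tested. All 9 members were called lower in D6RA than in D6DMSO under every alternative run. The 2 that turned had not been called: Pdgfra in D3RA against D0 was -0.32 with thinned libraries (adjusted p = 0.256), and Myocd in D6RA against D3RA ran from -0.17 without D3RA replicate 2 (adjusted p = 0.675) to 0.49 without D3RA replicate 1 where 1 library was left out, and was 0.88 with the added count in proportion to library size (adjusted p = 0.0697). With thinned libraries the test of the effect between days called 4717 genes instead of 7139, on fewer counts. Calls gained and not given above were Mef2c (D3DMSO against D0, adjusted p = 0.0387) and Gata6 (D3RA against D0, adjusted p = 0.0433) with quantile normalization, Gata6 again without the 3 libraries rich in Lars2-like counts (adjusted p = 0.0305), and, for D6DMSO against D3DMSO, Gata4 with voom weights (adjusted p = 0.000172) or the compared groups alone (adjusted p = 0.000479) and Foxc1 with voom weights (adjusted p = 0.00959). The fall of Myocd from D0 to D3DMSO was also not called with voom weights (adjusted p = 0.0566), in the D0 and D3 fit (adjusted p = 0.0838) or without the 3 libraries (adjusted p = 0.0997). With 1 library left out, 7 to 8 members were called in D3DMSO against D0, in D3RA against D0 and in D3RA against D3DMSO, 6 to 7 in D6DMSO against D3DMSO, and 8 in D6RA against D3RA and between days. With thinned libraries the D6RA against D6DMSO difference was -6.00 for Gata4, -7.38 for Meox1 and -6.40 for Foxc1. No filter was used, so the alternative of no filter is the reported fit. Low counts (at most 8 over 3 libraries for Gata4 and Foxc2 in D6RA, for Myocd in D3RA, and for Meox1, Foxc2 and Isl1 in D0) limit the sizes of their log2 fold changes.

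Replicate numbers showed no common pairing over all libraries: deviations from group means of same-numbered libraries had r from -0.148 to 0.212 over 30 pairs, over 0.1 in 2. Between the D0, D3DMSO and D3RA groups, however, every same-numbered pair had a positive r, from 0.016 to 0.212. Differently numbered pairs of these groups ran from -0.16 to 0.066. The labels do not say whether libraries of 1 number belong together. With a replicate block, 8 members were called in D3DMSO against D0, 7 in D3RA against D0, 8 in D3RA against D3DMSO and 9 in D6RA against D6DMSO, as without it. The block raised the number of called genes in each of the 7 comparisons, for example to 9287 from 9136 in D3RA against D3DMSO.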
